A study of Homo sapiens with 4 samples.

Results

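The aryl hydrocarbon receptor (AHR) and genes of its response were followed across 4 arrays of MCF10A, an immortalized but non-tumorigenic line of human mammary epithelium. The 8 genes were AHR, AHRR, ARNT, CYP1A1, CYP1B1, ALDH3A1, TIPARP and NQO1, and they were represented by every probe set annotated to exactly 1 of these symbols. That gave 19 of the 54675 probe sets on the array, and 8 of the 19775 genes that had a probe set with 1 symbol. Vector cells carried the empty pQCXIH retroviral vector. YAP-WT cells carried the same vector with wild-type YAP, the transcriptional coactivator restrained by the Hippo pathway. YAP-S94A cells carried a YAP changed in the region that binds the TEAD transcription factors, and YAP-W1W2 cells a YAP with both WW domains mutated. All 4 cultures grew in the same medium, with horse serum, EGF, hydrocortisone, insulin and cholera toxin, and the labels name no added AHR ligand. Whether a culture was a clone or a pool of infected cells is not given in the sources used here. Each group had 1 array, so each difference below is between 2 arrays, has no replicate check and carries no test or error. No spread between replicates was therefore available for ordering neighbouring levels.

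AHR is a ligand-activated transcription factor of the bHLH-PAS family that waits in the cytoplasm in a complex with HSP90 and its co-chaperones. After binding a ligand it moves to the nucleus, pairs with ARNT and binds DNA elements with the core letters GCGTG, which raises transcription of enzymes that oxidize and clear foreign compounds. AHRR competes with it for ARNT, and TIPARP, an ADP-ribosyltransferase, also damps its activity, so both act as feedback inhibitors. CYP1B1, which oxidizes estrogens and polycyclic hydrocarbons, is a cytochrome P450 known for its expression in mammary tissue.

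RefSeq promoter windows, from 250 bases before to 50 bases after a transcript start on GRCh38.p14, matched 6 of the 8 genes by symbol, with 9 windows in all. There was none for CYP1B1 or ALDH3A1. The windows of AHR, AHRR and CYP1A1 are shown because AHR and AHRR differed between the arrays and CYP1A1 is the textbook target. Each is written 5′ to 3′ on the strand of its gene, in lower case, with matches to searched letters in capitals.
AHR, chr7:17298402-17298701, plus strand: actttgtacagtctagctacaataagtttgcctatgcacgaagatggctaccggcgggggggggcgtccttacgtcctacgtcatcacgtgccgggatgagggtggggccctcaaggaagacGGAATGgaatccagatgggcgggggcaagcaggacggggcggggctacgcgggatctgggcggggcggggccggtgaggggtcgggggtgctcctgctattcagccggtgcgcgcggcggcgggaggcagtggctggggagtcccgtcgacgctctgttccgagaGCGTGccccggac
AHRR, chr5:321464-321763, plus strand: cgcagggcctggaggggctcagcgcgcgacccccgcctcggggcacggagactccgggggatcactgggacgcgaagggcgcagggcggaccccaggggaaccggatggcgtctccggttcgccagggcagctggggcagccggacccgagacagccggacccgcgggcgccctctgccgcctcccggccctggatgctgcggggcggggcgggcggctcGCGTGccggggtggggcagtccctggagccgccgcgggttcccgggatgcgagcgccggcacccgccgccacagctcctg
AHRR, chr5:322360-322659, plus strand: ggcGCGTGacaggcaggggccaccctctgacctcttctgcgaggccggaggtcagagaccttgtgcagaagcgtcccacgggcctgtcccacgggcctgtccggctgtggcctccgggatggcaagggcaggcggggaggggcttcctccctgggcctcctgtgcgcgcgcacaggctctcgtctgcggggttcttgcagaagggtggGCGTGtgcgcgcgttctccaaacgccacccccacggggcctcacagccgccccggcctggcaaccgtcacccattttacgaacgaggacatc
CYP1A1, chr15:74725479-74725778, minus strand: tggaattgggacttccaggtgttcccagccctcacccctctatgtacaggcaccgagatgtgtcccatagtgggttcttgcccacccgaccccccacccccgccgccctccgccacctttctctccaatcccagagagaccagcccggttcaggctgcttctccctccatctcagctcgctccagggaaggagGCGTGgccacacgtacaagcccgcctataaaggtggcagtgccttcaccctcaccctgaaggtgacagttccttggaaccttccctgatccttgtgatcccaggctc

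The searched letters were GCGTG (the AHR core), GGAATG (a core bound by TEAD factors) and TGACNNNGC (an antioxidant response element), on both strands, and no match overlapped another in these 9 windows. In the AHR window GGAATG began 128 bases before the start and GCGTG at position 38 after it. The first AHRR window held GCGTG 30 bases before its start, and the second held it 247 and 42 bases before its start. CYP1A1 had GCGTG 57 bases before the start. Of the 9 windows, 6 held GCGTG, 2 held GGAATG and 1, of ARNT, held TGACNNNGC. Among all 35116 windows of this length, 36.5% held GCGTG, 14% held GGAATG and 13.3% held TGACNNNGC. A match describes letters in the window, and the arrays measured no binding.

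Each value is a linear array intensity. The floor was an intensity of 72.9, the 40th percentile of the 4 arrays pooled, and a gene was called measured where its brightest probe set averaged at least 113.6. Of the 8 genes 7 were measured, and CYP1A1 was not. A gene was called changed where 2 arrays differed at least 2-fold. YAP1 had 3 probe sets, whose log2 difference from vector lay between −0.24 and 0.60, and whether they lie within the constructs is not known. The TEAD target CCN2 had intensities of 322.8 for vector, 5523 for YAP-WT, 636.5 for YAP-S94A and 8075 for YAP-W1W2. The basal keratins KRT5 and KRT14 were at 30482 or above on every array. The summed intensity of 4 basal markers ran from 79082 for vector to 101119 for YAP-S94A. That of 6 luminal markers ran from 12349 for vector to 55999 for YAP-W1W2, where most of it came from KRT8 at 16277 and KRT18 at 34605. GATA3 read 2679 for vector, 7108 for YAP-WT, 1458 for YAP-S94A and 4723 for YAP-W1W2. ESR1 and FOXA1 were dim, at 79.4 to 348.9, and KRT19 was above the floor only in YAP-S94A, at 76.1. The 6 fibroblast markers summed to between 947 and 1466, 4 leukocyte markers to between 223.6 and 453.5, and 4 endothelial markers to between 579.3 and 866.9. Among these markers, VWF and CDH5 (endothelial) were at or below the floor on all 4 arrays and PDGFRB (fibroblast) on the 3 YAP arrays. PTPRC (leukocyte) was at or below it on 3 arrays and at 74.6 in YAP-WT. Some of the other markers in these lists were measured. By brightest probe set COL1A1 read 409.9 to 1105, COL1A2 99.3 to 232.5 and PECAM1 472.6 to 680.9. THY1 read 240.9 to 316.6 on 3 arrays and was below the floor in YAP-WT, but its second measured set was 1.34 (log2) above vector there. The second COL1A1 set stood at −2.29 from vector in YAP-WT and −3.20 in YAP-W1W2, where the brightest stood at 1.29 and 0.67. The monocyte marker CD14 read 311.9 for vector and 143.9 for YAP-S94A and was below the floor in YAP-WT and YAP-W1W2. Some markers too dim on average to count as measured were above the floor on part of the arrays. CD3E (leukocyte) read 256.1 in YAP-WT, and KDR (endothelial) 201.2 for vector and 148 for YAP-WT. PDGFRA (fibroblast) read 81.2 for YAP-WT and 134.6 for YAP-S94A, COL3A1 82.7 to 120.3 on the YAP arrays, and LYZ (leukocyte) 98.1 for YAP-W1W2.

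CYP1B1 was lower in all 3 YAP cultures than in vector, and far lower in the mutants than in YAP-WT. Its brightest probe set read 5161 for vector, 1655 for YAP-WT, 173.4 for YAP-S94A and 187.5 for YAP-W1W2. The vector array was thus highest, YAP-WT lay between, and the mutants lay close together at the bottom. Relative to vector, 32.1% of the intensity was left for YAP-WT, 3.36% for YAP-S94A and 3.63% for YAP-W1W2. These are differences of 3.12-fold, 29.8-fold and 27.5-fold, and the probe set was above the floor on every array. In bulk RNA, fewer cells with a transcript and less of it per cell cannot be told apart.

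All 4 CYP1B1 probe sets gave vector the highest intensity. The second read 3741, 1388, 250.1 and 223.5 on the arrays in the order used above, and the third 2024, 596.8, 148.9 and 163.1. The dimmest read 246.2 in vector and was below the floor on the YAP arrays, so it gave only that vector was at least 3.38-fold higher. Over the 3 measured probe sets the log2 difference from vector ran from −1.76 to −1.43 for YAP-WT, from −4.90 to −3.77 for YAP-S94A and from −4.78 to −3.63 for YAP-W1W2. The mutants differed from each other by at most 1.12-fold on these 3, in opposite directions, so their order is not settled. Without the vector array, CYP1B1 was 9.54-fold lower in YAP-S94A than in YAP-WT and 8.83-fold lower in YAP-W1W2 by the brightest probe set. The second gave 5.55-fold and 6.21-fold and the third 4.01-fold and 3.66-fold. The mean log2 value over all 4 sets, of which the dimmest was at the floor on the YAP arrays, differed by −1.93 and −1.91 from YAP-WT, and by −3.58 and −3.56 from vector, smaller than by the brightest set alone. Ranked from the lowest among 12759 measured genes, it stood at place 185 for YAP-WT against vector, 3 for YAP-S94A against vector and 5 for YAP-W1W2 against vector. In the mutants against YAP-WT it stood at place 33 for YAP-S94A and 7 for YAP-W1W2.

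**Figure D1:**
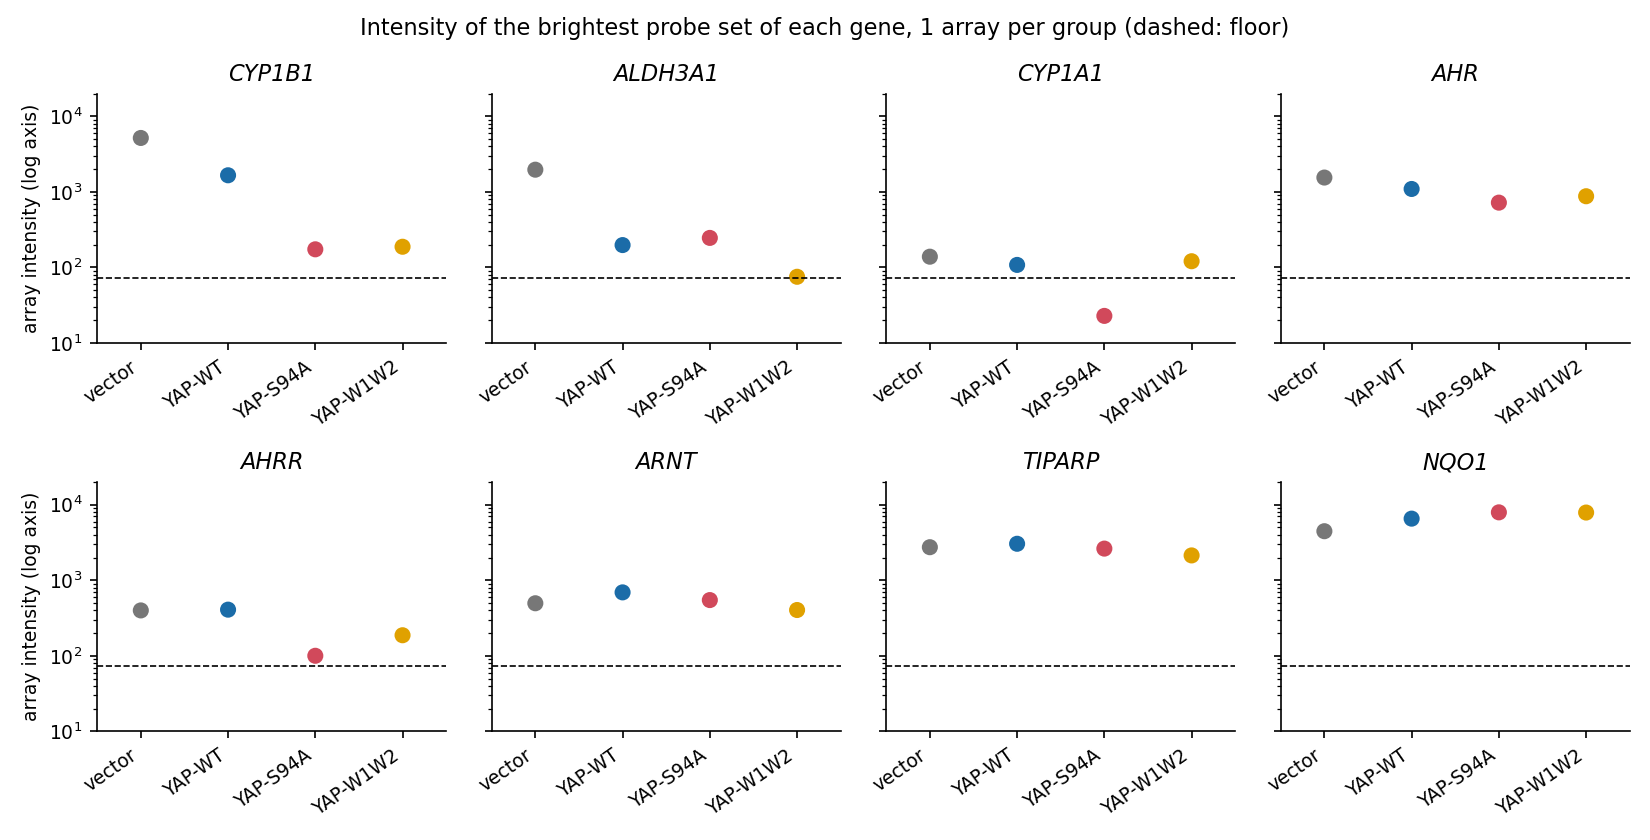
Intensity (log axis) of the brightest probe set of each of the 8 genes on each of the 4 arrays, 1 point per array, with the floor of 72.9 dashed. CYP1B1 is at 5161 in vector and at 173.4 and 187.5 in the mutants, ALDH3A1 at 1963 in vector and 75.1 in YAP-W1W2, and TIPARP between 2135 and 3045.

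ALDH3A1, an aldehyde dehydrogenase that oxidizes medium-chain and aromatic aldehydes, was also lower in all 3 YAP cultures but in another order. Its only probe set read 1963 for vector, 197.3 for YAP-WT, 245.5 for YAP-S94A and 75.1 for YAP-W1W2. Vector was well above the rest, YAP-WT and YAP-S94A lay near each other, and YAP-W1W2 was lowest. Intensity was 10.1% of vector for YAP-WT, 12.5% for YAP-S94A and 3.83% for YAP-W1W2, or 9.95-fold, 7.99-fold and 26.1-fold lower. The YAP-W1W2 value lies just above the floor, so folds that use it are close to bounds. YAP-S94A exceeded YAP-WT by 1.24-fold, whereas CYP1B1 was 4.01-fold to 9.54-fold lower in that comparison over its measured probe sets. YAP-W1W2 was 2.63-fold below YAP-WT and 3.27-fold below YAP-S94A. With the floor raised to the 60th percentile these last log2 differences were −0.12 and −0.43, no longer 2-fold. From the lowest of the 12759 measured genes, ALDH3A1 stood at place 6 for YAP-WT, 32 for YAP-S94A and 7 for YAP-W1W2, each against vector.

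CYP1A1, the cytochrome P450 most used as a readout of AHR activity, was dim. Its only probe set read 138.5 for vector, 107.8 for YAP-WT, 22.8 for YAP-S94A and 120.6 for YAP-W1W2. The YAP-S94A value was below the floor, so vector was at least 1.90-fold higher there, and the other arrays lay within 1.28-fold of vector. With a floor at the 20th percentile the YAP-S94A log2 difference from vector was −2.54, so this value depends on the floor.

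The receptor itself was lower in the YAP cultures. AHR had 1 probe set, at 1544 for vector, 1091 for YAP-WT, 718.8 for YAP-S94A and 873.8 for YAP-W1W2. Vector was highest and YAP-S94A lowest, and all 4 values were far above the floor. The differences from vector were 1.42-fold, 2.15-fold and 1.77-fold, of which that of YAP-S94A alone passed 2-fold. The median measured gene was itself 0.14 (log2) higher than vector for YAP-WT, 0.14 for YAP-S94A and 0.10 for YAP-W1W2. Relative to it AHR stood at −0.64, −1.25 and −0.92. From the lowest of the 12759 measured genes AHR stood at place 1747 for YAP-WT, 683 for YAP-S94A and 1458 for YAP-W1W2, each against vector. In the same order 13.7%, 5.3% and 11.4% of the measured genes lay lower.

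AHRR, the repressor, was level in YAP-WT and lower in the mutants. Its only probe set read 399.5 for vector, 409 for YAP-WT, 100.3 for YAP-S94A and 187.5 for YAP-W1W2. Vector and YAP-WT were nearly the same, and YAP-S94A was lowest. AHRR was 3.98-fold lower than vector in YAP-S94A and 2.13-fold lower in YAP-W1W2. Against YAP-WT it was 4.08-fold and 2.18-fold lower, and YAP-W1W2 was 1.87-fold above YAP-S94A. With the floor at the 60th percentile the YAP-S94A log2 difference went from −1.99 to −1.14 against vector and from −2.03 to −1.17 against YAP-WT, and that of YAP-W1W2 from YAP-S94A went from 0.90 to 0.05. The small log2 difference of YAP-WT from vector was 0.03, and its sign turned under quantile normalization (−0.07) and under equal trimmed means (−0.10).

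ARNT, the partner of AHR, gave no common direction against vector over its probe sets, and was lower in both mutants than in YAP-WT on all 5 that were measured. The brightest, whose _x_at suffix marks a set that may also bind related transcripts, read 497, 692.4, 547.6 and 404.5 from vector through YAP-WT and YAP-S94A to YAP-W1W2. The brightest set without an _s_at or _x_at suffix read 646.8, 570.1, 346.1 and 401.1 in the same order. Vector was thus below YAP-WT on the former and above it on the latter. Of 7 probe sets 5 were measured, and 2 were at or below the floor on all arrays. Over the 5, log2 differences from vector ran from −0.26 to 0.57 for YAP-WT, from −0.90 to 0.24 for YAP-S94A and from −1.64 to 0.23 for YAP-W1W2. The −1.64 came from a set that was below the floor in YAP-W1W2, where vector was at least 3.12-fold higher, and its 3 other intensities were only 209.4 to 293.9. Against YAP-WT the 5 sets ran from −0.72 to −0.16 (log2) in YAP-S94A and from −2.01 to −0.33 in YAP-W1W2, where the lowest value again came from that set and is a bound. The brightest set was 1.26-fold and 1.71-fold lower there, short of 2-fold.

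TIPARP differed little between the arrays. Its only probe set read 2743 for vector, 3045 for YAP-WT, 2628 for YAP-S94A and 2135 for YAP-W1W2. The highest and lowest, YAP-WT and YAP-W1W2, were 1.43-fold apart. The log2 difference of YAP-WT from vector was 0.15, and −0.03 under quantile normalization.

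NQO1, a quinone reductase that answers to NRF2 as well as to AHR, went the other way from CYP1B1 and ALDH3A1. The brightest of its 3 probe sets read 4465 for vector, 6549 for YAP-WT, 7934 for YAP-S94A and 7884 for YAP-W1W2. Vector was lowest on all 3 probe sets. On the brightest the differences were 1.47-fold, 1.78-fold and 1.77-fold higher, below the 2-fold rule, and 0.42, 0.69 and 0.72 (log2) relative to the median gene. The second probe set was 1.33-fold, 1.62-fold and 1.53-fold higher and the third 1.36-fold, 1.51-fold and 1.35-fold. The mutants differed from each other by at most 1.12-fold.

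**Figure D2:**
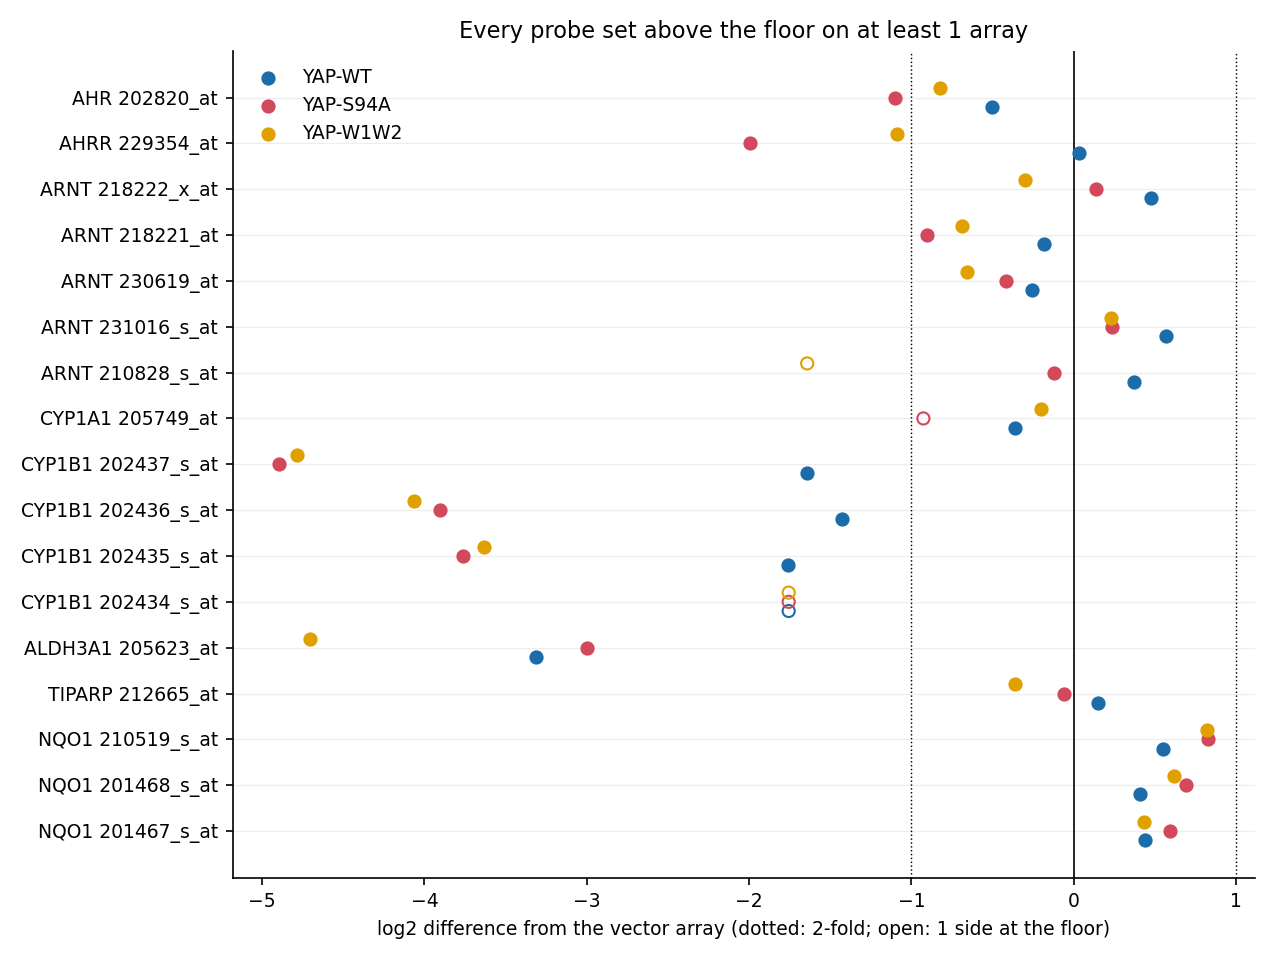
Log2 difference of each YAP array from vector for the 17 probe sets that were above the floor on at least 1 array, with dotted lines at 2-fold and open points where 1 side was at the floor. The CYP1B1 and ALDH3A1 sets lie left of the 2-fold line, the NQO1 sets lie between 0 and 2-fold higher, and the ARNT sets lie on both sides of 0.

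Counted together, 2 of the 7 measured genes were at least 2-fold lower in YAP-WT than in vector (CYP1B1 and ALDH3A1), where 4.95% of all measured genes were. In YAP-S94A against vector 4 of 7 were lower (AHR, AHRR, CYP1B1 and ALDH3A1), against 6.53% of all measured genes. In YAP-W1W2 against vector 3 of 7 were lower (AHRR, CYP1B1 and ALDH3A1), against 8.4%. None of the 7 was 2-fold higher in these comparisons, where 9.11%, 10.3% and 11.4% of all measured genes were. These 3 comparisons share the vector array, so a value particular to that array would enter each of them. Against YAP-WT, 2 of 7 were lower in YAP-S94A (AHRR and CYP1B1, background 6.27%) and 3 of 7 in YAP-W1W2 (AHRR, CYP1B1 and ALDH3A1, background 5.59%), and these comparisons share the YAP-WT array. In YAP-W1W2 against YAP-S94A, ALDH3A1 was the 1 gene of 7 that was lower, with a background of 4.45%. No member was 2-fold higher in the last 3 comparisons, with backgrounds of 5.06%, 3.91% and 4.98%. The 8 genes were chosen with earlier results of these data known, so these counts beside the backgrounds are a description and not a test.

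The median log2 difference of the 7 genes from vector was 0.03 for YAP-WT, −1.10 for YAP-S94A and −0.82 for YAP-W1W2, beside 0.14, 0.14 and 0.10 for all measured genes. Against YAP-WT it was −0.34 in YAP-S94A and −0.78 in YAP-W1W2, beside 0.01 and −0.04. AHR, CYP1B1 and ALDH3A1 were below vector on all 3 YAP arrays, and NQO1 was above it on all 3. The bioB spike-in, bacterial RNA added at hybridization and read by 3 probe sets, also differed from vector, by log2 values of −0.47 for YAP-WT, −0.83 for YAP-S94A and −1.28 for YAP-W1W2. In the same order the spike-in bioC stood at −0.30, −0.75 and −1.20, bioD at −0.34, −0.79 and −0.96, and cre at 0.02, −0.20 and −0.51. The mean log2 level of the actin control sets was 0.43, 0.68 and 0.80 above vector, and that of the GAPDH control sets 0.22, 0.44 and 0.44. The 3′ to 5′ ratio of the actin control was 1.16 for vector, 1.07 for YAP-WT, 1.01 for YAP-S94A and 0.96 for YAP-W1W2, while that of the GAPDH control was 0.96, 1.02, 1.04 and 1.02. The part of these shifts in the results was not tested, nor was that of the summed luminal markers, mostly KRT8 and KRT18.

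**Figure D3:**
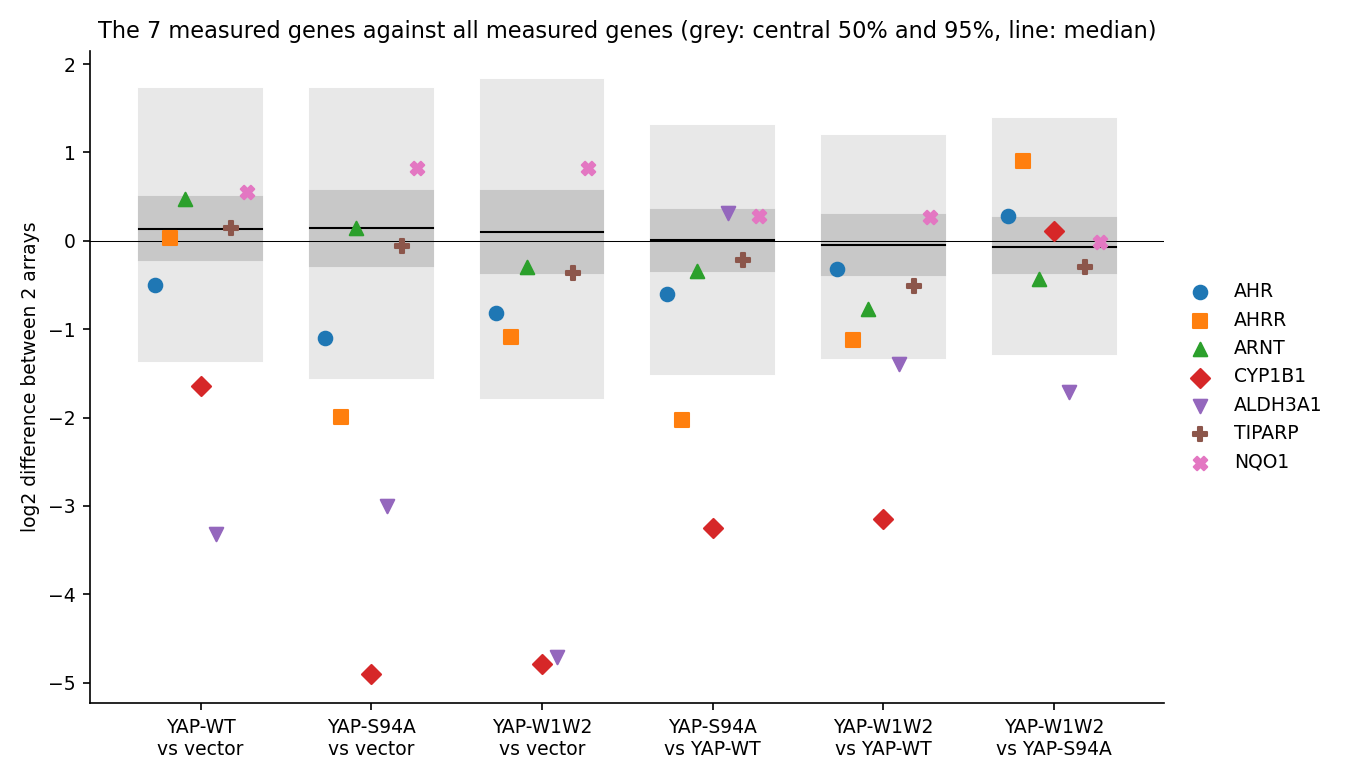
Log2 difference between 2 arrays for the 7 measured genes (symbols) in each of 6 comparisons, over grey bands that hold the central 50% and 95% of the 12759 measured genes, with the median as a line. CYP1B1 lies below the 95% band in the first 5 comparisons and at 0.11 in YAP-W1W2 against YAP-S94A.

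The genes with profiles nearest to CYP1B1 were found by Euclidean distance between mean-centred log2 intensities over the 4 arrays, among 12750 genes. They were the membrane metalloprotease MME (distance 0.53), the proteoglycan DCN (0.59), C5orf46 (1.04), the muscle-atrophy ubiquitin ligase FBXO32 (1.12) and the pyruvate dehydrogenase kinase PDK4 (1.16). DCN read 9344 for vector, 3884 for YAP-WT, 288 for YAP-S94A and 248.3 for YAP-W1W2, so it too was highest in vector, intermediate in YAP-WT and close between the mutants. MME, C5orf46 and PDK4 were below the floor in both mutants and FBXO32 in YAP-S94A, so their distances depend on the floor. Nearest to ALDH3A1 were the calcium-binding protein CALB1 (0.41), SERPINA3 (0.66), the epithelial transcription factor EHF (0.67), AZGP1 (0.68) and AKR1C3, an aldo-keto reductase (0.85). AKR1C3 read 2418 for vector, 459.6 for YAP-WT, 457.7 for YAP-S94A and 200.7 for YAP-W1W2, the last being lowest as for ALDH3A1. CALB1 and SERPINA3 were below the floor in YAP-W1W2. CYP1B1 and ALDH3A1 were 2.53 apart, which made ALDH3A1 the gene at place 97 from CYP1B1 and CYP1B1 the gene at place 486 from ALDH3A1. AHRR stood at place 177 from CYP1B1 and AHR at place 754. These distances rest on 4 arrays and describe them.

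**Figure D4:**
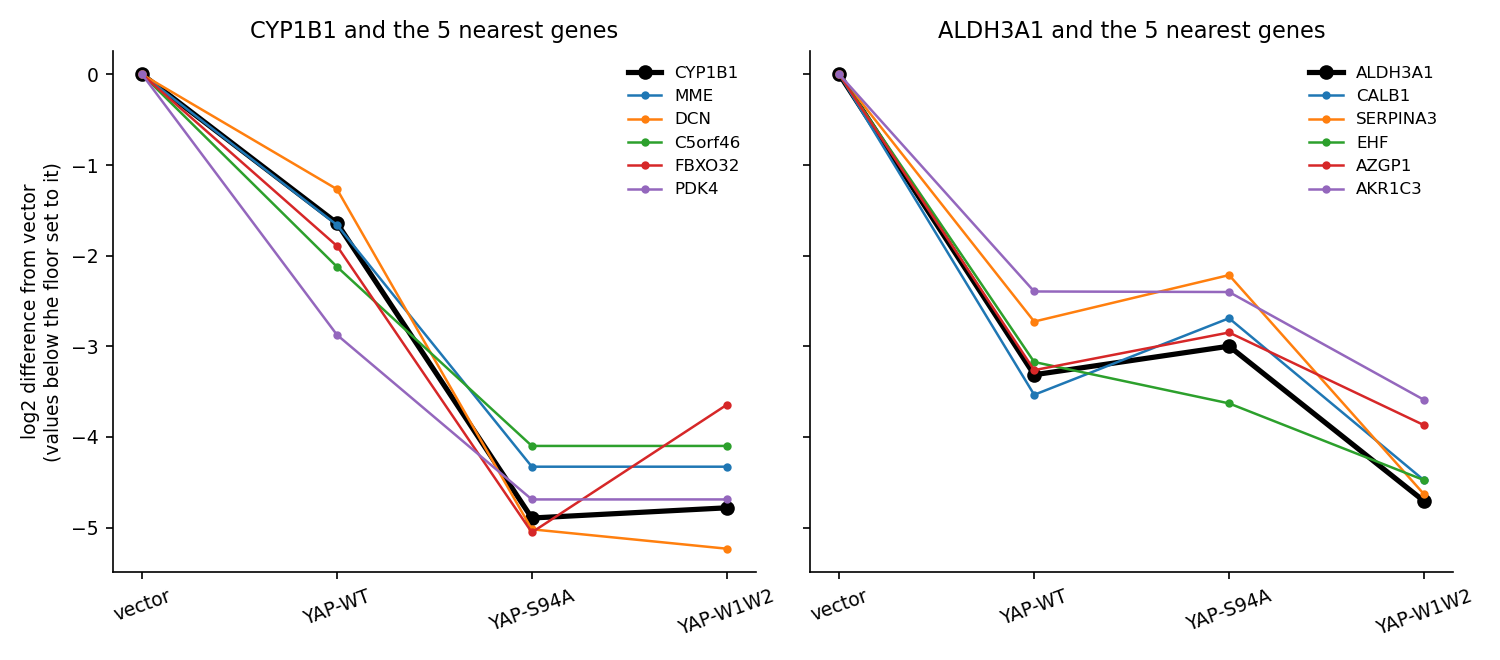
Log2 difference from vector on the 4 arrays for CYP1B1 (left) and ALDH3A1 (right), in black, and for the 5 genes nearest to each, with values below the floor set to it. The left profiles lie between −2.87 and −1.27 in YAP-WT and below −3.6 in the mutants, and the right profiles are at −2.40 or lower in YAP-WT and lowest in YAP-W1W2.

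Of 6 listed genes of the AHR complex 5 were measured, and by brightest probe set 0 passed 2-fold in any of the 6 comparisons. Against vector, 9.11%, 10.3% and 11.4% of all measured genes were 2-fold higher for YAP-WT, YAP-S94A and YAP-W1W2, and 4.95%, 6.53% and 8.4% lower. Between YAP arrays 3.91% to 5.06% were higher and 4.45% to 6.27% lower. By brightest set, 4 of the 5 genes lay above vector on all 3 YAP arrays, and CUL4B below it on all 3. Their median log2 difference was 0.47 for YAP-WT, 0.83 for YAP-S94A and 0.53 for YAP-W1W2, beside 0.14, 0.14 and 0.10 for all measured genes. The chaperone HSP90AA1, which holds AHR in its ligand-binding state, read 16245, 25621, 28848 and 25117 from vector through YAP-WT and YAP-S94A to YAP-W1W2. Vector was lowest there, the reverse of AHR itself. By brightest set the largest differences were those of CUL4B and the nuclear exporter XPO1, the latter 0.85 (log2) higher in YAP-S94A. CUL4B, a ubiquitin ligase scaffold used in AHR turnover, was 1.86-fold lower in YAP-W1W2. Its 4 measured probe sets ran from −1.39 to −0.90 (log2) there, so the count of 0 past 2-fold holds for the brightest sets only.

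Other bHLH-PAS factors and PAS coactivators gave 8 measured genes of 11. By brightest probe set, only SIM2, a bHLH-PAS factor that also pairs with ARNT, passed 2-fold against vector. It was 3.20-fold higher in YAP-WT, where 9.11% of all measured genes were higher. SIM2 read 172.9 for vector, 553.3 for YAP-WT, 288.8 for YAP-S94A and 247.7 for YAP-W1W2. Some dimmer sets of other genes were 2-fold lower than vector. In log2, measured sets ran from −1.55 to 0.14 for NCOA2 in YAP-WT and from −1.33 to −0.24 for NPAS2 in YAP-S94A. In YAP-W1W2 those of BMAL1 ran from −1.07 to −0.49. NCOA1, whose brightest set has an _x_at suffix, ran from −1.68 to 0.22 in YAP-S94A and from −1.02 to 0.11 in YAP-W1W2. HIF1A, the hypoxia factor that shares ARNT with AHR, lay within log2 values of −0.01 to 0.42 of vector. By brightest set, the clock factor NPAS2 was 2.34-fold lower in YAP-S94A than in YAP-WT. Its 4 measured sets ran from −1.40 to −0.40 (log2) there. BMAL1 was 2.04-fold lower in YAP-W1W2 than in YAP-S94A, and its 2 measured sets ran from −1.56 to −1.03. Of all measured genes 6.27% and 4.45% were 2-fold lower in these comparisons.

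Further genes known to be induced through AHR gave no common direction. Of 10 listed, 8 were measured. By brightest probe set 1 was higher and 1 lower in YAP-WT, 0 passed 2-fold in YAP-S94A, and 2 were lower in YAP-W1W2. Of all measured genes 9.11% were higher and 4.95% lower for YAP-WT, 10.3% and 6.53% for YAP-S94A, and 11.4% and 8.4% for YAP-W1W2. A single gene of 8 is therefore near the background. The Notch target HES1 read 897.7 for vector, 275.1 for YAP-WT, 1078 for YAP-S94A and 247 for YAP-W1W2. It was therefore low in YAP-WT and YAP-W1W2 and not in YAP-S94A, unlike CYP1B1 and AHRR. The cytokine gene IL1B was 2.42-fold lower in YAP-W1W2 by its brightest probe set. Its 2 measured sets ran from −2.02 to −1.27 (log2) there and from −1.59 to −0.63 in YAP-WT, so 1 of them passed 2-fold in YAP-WT. The secreted glycoprotein gene STC2 was 2.42-fold higher in YAP-WT. CYP1A2, the close relative of CYP1A1, stayed within log2 values of 0.05 to 0.19 of vector. It was read by an _x_at set, which may also bind related transcripts, at 295.7 to 336.6. The median of the list was 0.15 for YAP-WT, 0.09 for YAP-S94A and −0.26 for YAP-W1W2.

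NQO1 was set beside the NRF2 pathway, which answers to oxidants. Of 13 listed genes 11 were measured, with medians of 0.25 for YAP-WT, 0.31 for YAP-S94A and 0.37 for YAP-W1W2. Compared with vector, the genes past 2-fold upwards numbered 1 for YAP-WT, 0 for YAP-S94A and 3 for YAP-W1W2, with 0 past 2-fold downwards. Of all measured genes 9.11%, 10.3% and 11.4% were that much higher, so 1 of 11 in YAP-WT is near the background. The shares 2-fold lower were 4.95%, 6.53% and 8.4%, so 0 of 11 is near the background as well. The cystine transporter SLC7A11 read 669 for vector, 1815 for YAP-WT, 815.2 for YAP-S94A and 1746 for YAP-W1W2, or 2.71-fold and 2.61-fold higher in YAP-WT and YAP-W1W2. Its 3 measured probe sets ran from 1.31 to 1.47 (log2) in YAP-WT and from 0.75 to 1.58 in YAP-W1W2. GCLM, the modifier subunit of glutathione synthesis, was 2.43-fold higher in YAP-W1W2 by its brightest probe set, and its measured sets ranged from 0.29 to 1.28 (log2). TXNRD1, the thioredoxin reductase, was 2.22-fold higher there and 1.16-fold lower in YAP-S94A. By its brightest probe set GCLC, the catalytic subunit, was 2.04-fold lower in YAP-S94A and 2.27-fold lower in YAP-W1W2 than in YAP-WT. Its other measured set stood at −0.76 and −0.84 (log2) there, short of 2-fold. Against vector the brightest set was 1.997-fold lower in YAP-W1W2, just short of the 2-fold rule. NFE2L2, which encodes NRF2, read 7112 for vector, 5644 for YAP-WT, 4729 for YAP-S94A and 4506 for YAP-W1W2. Vector was highest for it and lowest for NQO1.

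The kynurenine pathway, which makes endogenous AHR ligands from tryptophan, was thinly measured, with 4 of 9 genes. IDO1, its entry enzyme, read 148.8, 241.9, 177.4 and 192.7 from vector through YAP-WT and YAP-S94A to YAP-W1W2, and its alternative TDO2 was below the floor on all 4 arrays. The kynureninase KYNU was 2.48-fold lower in YAP-W1W2 than in vector, and its measured probe sets ranged from −1.55 to −1.31 (log2). The aminotransferase KYAT1 was 1.03 (log2) above vector in YAP-WT.

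Other aldehyde dehydrogenases were compared with ALDH3A1. Of 18 listed genes 13 were measured. Against vector 1 was higher and 2 lower in YAP-WT, 1 and 1 in YAP-S94A, and 1 and 4 in YAP-W1W2. The shares of all measured genes that were higher and lower were 9.11% and 4.95%, 10.3% and 6.53%, and 11.4% and 8.4% in the same comparisons. ALDH3A2, the fatty aldehyde dehydrogenase of the same subfamily, read 4656 for vector, 2167 for YAP-WT, 3014 for YAP-S94A and 2216 for YAP-W1W2. Vector was again highest, and by this brightest probe set the largest difference from it was 2.15-fold, beside 26.1-fold for ALDH3A1. The retinaldehyde dehydrogenase ALDH1A3 was 3.64-fold lower than vector in YAP-WT but 2.00-fold higher in YAP-S94A and 2.33-fold higher in YAP-W1W2. ALDH5A1, which oxidizes succinic semialdehyde, was 1.92 (log2) higher in YAP-WT from a vector intensity of 88.7, near the floor. The mitochondrial enzyme ALDH4A1 was 1.40 (log2) below vector in YAP-W1W2 by its brighter probe set and 0.04 below by the other. ALDH1L2 was 1.09 (log2) below vector in YAP-W1W2, and ALDH1L1, dim at 151.8 for vector, was below the floor in YAP-S94A.

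**Figure D5:**
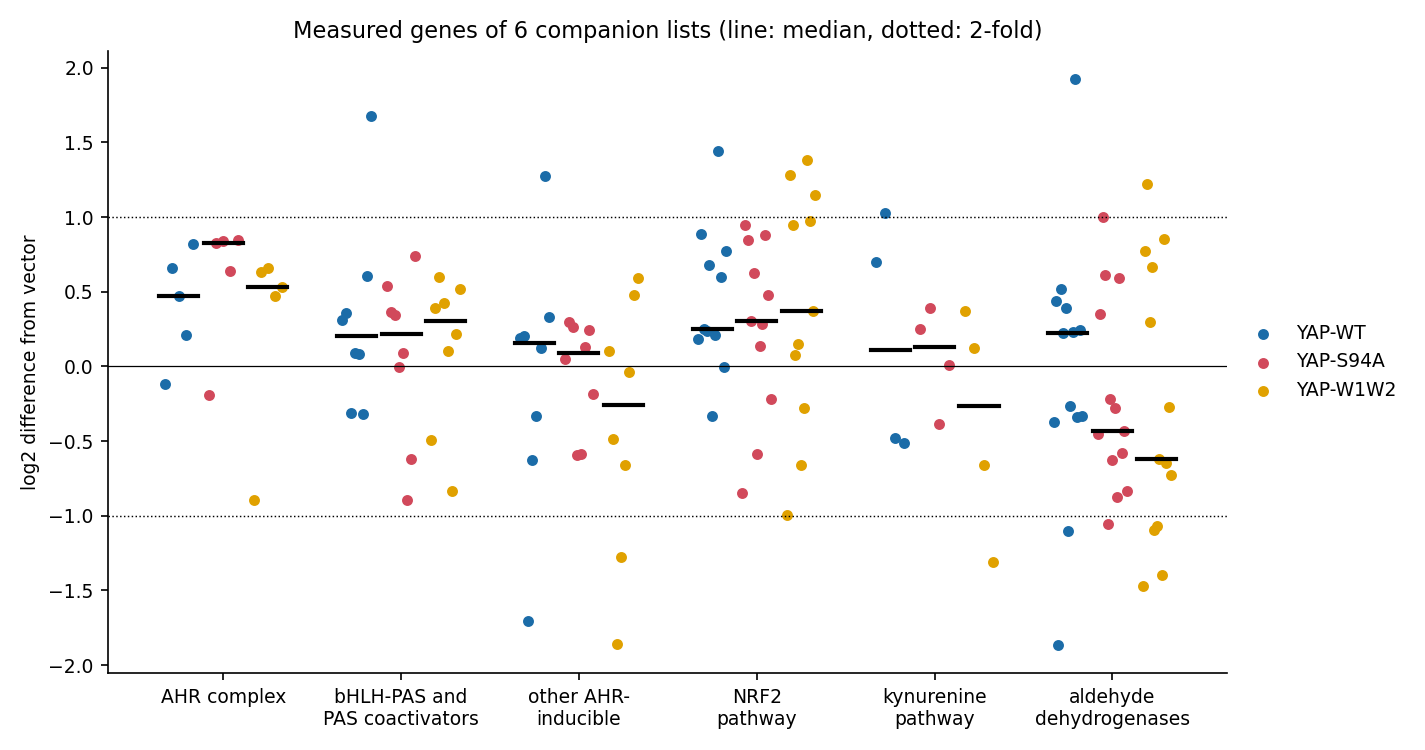
Log2 difference from vector of the measured genes of 6 companion lists, 1 point per gene and YAP array, with the list median as a bar and dotted lines at 2-fold. The AHR complex lies mostly above 0 with 0 of 5 genes past 2-fold by brightest probe set, and no point is as low as the −4.90 of CYP1B1 in YAP-S94A.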

How the data were processed

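Total RNA of 4 MCF10A cultures, extracted with Trizol and labelled with biotin per the labels' protocols, was read on Affymetrix arrays, 1 per group. The authors deposited linear array intensities. GCOS, the Affymetrix operating software, is named in the submitters' processing notes, and neither its version nor its scaling target is stated there. The number of arrays limits the precision.

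The 62 control probe sets were kept out of the floor and the gene values. The 2% trimmed means, taken with the control sets included, differed by a ratio of 1.097, within the 10% allowed, so no scaling was applied. Low intensities were set to a floor of 72.9 (40th percentile) before taking log2, with Python 3.11.15, numpy 2.4.6 and pandas 2.3.3. Where 1 of 2 values was at the floor, the fold is a lower bound. Genes were named from the platform annotation: 41097 probe sets had 1 symbol, 1801 several and 11777 none, and 41043 matched the RefSeq table of GRCh38.p14 by Entrez identifier. The brightest probe set stood for a gene, and 12759 of 19775 genes averaged at least 113.6, the median over probe sets. The calling procedure was tested on simulated data, where only bright genes were changed, by more than the 2-fold rule, with noise of a chosen size. That test does not cover dim genes or the unknown spread between replicates.

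The 8 genes and all lists were chosen with earlier results of these data known. Named genes are the 8 members, up to 5 measured genes per list with the largest change past 2-fold in any of the 6 comparisons (otherwise the 2 largest), the 5 nearest genes to CYP1B1 and to ALDH3A1 among those above the floor on at least 2 arrays, CCN2, YAP1 and the cell type markers. HSP90AA1, HIF1A, CYP1A2, NFE2L2, IDO1, TDO2 and ALDH3A2 were added for their role after their values were seen. Alternatives covered scaling, floor, probe set choice and the filter on dim genes.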

Additional observations from a re-analysis of the deposited data

How the results depend on the processing

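With 1 array per group no replicate could be left out, and no paired analysis was possible because the groups share no replicate numbers beyond 1 array each. Of 48 recomputed counts of changed genes, 45 stayed within 1.5 times the reported count. In YAP-W1W2 against YAP-S94A the count went from 1 to 0 with the floor at the 60th percentile, where ALDH3A1 dropped out because its YAP-W1W2 value was below that floor. With probe sets that carry an _s_at or _x_at suffix left out, the count went from 2 to 1 in YAP-WT against vector and from 2 to 1 in YAP-S94A against YAP-WT, because every CYP1B1 and NQO1 probe set carries one of these suffixes and 5 members were left. Of 324 recomputed log2 differences of single members, 303 kept their side of 2-fold and their sign, 9 below 2-fold changed sign, 6 (all CYP1A1, with the floor at the 60th percentile) became 0, 4 passed 2-fold (all CYP1A1) and 2 dropped below it (ALDH3A1), and none past 2-fold changed sign under the settings tried. The sign changes were in AHRR, TIPARP, NQO1 and ARNT. Signal over background limits CYP1A1, the dimmest CYP1B1 probe set, ALDH3A1 in YAP-W1W2 and AHRR in YAP-S94A.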
